A study of Mus musculus with 18 samples.

Results

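The nuclear-encoded subunits of respiratory chain complexes I to IV, with cytochrome c, were read in mouse hearts as a list of 40 genes. Of these, 39 were measured, through 82 probe sets of the Affymetrix Mouse 430 2.0 array whose annotation gave a single gene symbol, out of 18193 genes measured in all. One probe set stood for each gene, the one with the highest mean over the 18 arrays. The measured genes were 21 of 21 listed for complex I, 4 of 4 for complex II, 6 of 6 for complex III, 7 of 8 for complex IV, and cytochrome c. Cox7b had no probe set under its own symbol and was not analysed here.

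The hearts came from control mice and from mice lacking Kir6.1, the pore subunit of a vascular ATP-sensitive potassium channel encoded by Kcnj8, which the labels call mutant. Mice received 0.5 µg of lipopolysaccharide (LPS, the bacterial cell wall product that starts endotoxic shock) in phosphate-buffered saline (PBS), or the saline by itself. The 6 groups of 3 arrays were control and mutant hearts at 3 h of PBS, at 30 min of LPS and at 3 h of LPS. The design speaks of 3 mice per genotype, but no label ties an array to a mouse, so the p-values measure the spread between arrays, which may be technical. The labels name no allele, strain, age or control genotype.

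The respiratory chain passes electrons from NADH (complex I) and succinate (complex II) through ubiquinone to complex III, then through cytochrome c to complex IV, which reduces oxygen. Complexes I, III and IV pump protons, and the ATP synthase uses the gradient. Heart muscle is dense in mitochondria, and respiratory chain failure is one of the recognised features of the septic heart. Some subunits are encoded by mitochondrial DNA, and those were not analysed here: 0 of 13 had a probe set under their symbols.

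Kcnj8 was at 8.35 to 8.90 (log2) on the 9 control arrays and at 4.35 to 5.36 on the 9 mutant arrays. Hybridization dates in the experiment files put mutant LPS 3 h replicates 1 and 3 on a day of their own, here called the 2 second-day arrays. Of the other 16, the 6 arrays of LPS 30 min shared a later day, and the remaining 10 an earlier one: PBS of either genotype, LPS 3 h of the controls, and replicate 2 of LPS 3 h in mutants. For the housekeeping controls Gapdh and Actb, the mean 3′ signal minus the mean 5′ signal was 1.09 and 1.37 on the 2 second-day arrays and 0.13 to 0.44 on the other 16, a measure that grows as RNA or its copies lose their 5′ part. For the subunits followed in full, the mutant LPS 3 h values are therefore given array by array.

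Regulators of these genes bind short motifs near their starts: NRF1 and the GA-binding protein (GABP) are the classic nuclear respiratory factors, and cytochrome c was the gene in which NRF1 was first described, in the rat. Promoter windows of 300 bases, from 250 before to 50 after the annotated start, were found for 29 of the 40 genes (30 windows) in RefSeq on GRCm38.p6. Both strands were searched. The NRF1 core GCGCATGC was in 5 of the 30 windows (16.7%) and in 2.71% of all 32851 promoter windows. The GABP and ETS family motif CCGGAAG was in 5 of 30 (16.7%) and in 8.86% of all. The YY1 motif AAGATGGC was in 5 of 30 (16.7%) and in 2.75% of all, and the ERR motif TCAAGGTCA was in 1 of 30, that of Sdhd, and in 0.423% of all. In Uqcrc1 the NRF1 letters overlapped on both strands, after the start. The stretches printed here are the 100 bases before the start, on the gene's strand, of the genes whose NRF1 or GABP letters lie there and whose levels are followed below. Capitals mark the motif. Matches are descriptions of letters, not of bound sites.
Cycs, NRF1 core on the opposite strand, chr6:50566570-50566669, reverse strand: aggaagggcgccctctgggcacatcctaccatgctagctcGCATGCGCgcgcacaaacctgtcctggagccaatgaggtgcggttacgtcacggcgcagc
Sdhb, NRF1 core on the opposite strand, chr4:140961171-140961270, forward strand: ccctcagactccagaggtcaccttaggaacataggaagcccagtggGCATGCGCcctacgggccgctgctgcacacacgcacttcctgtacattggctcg
Ndufa6, NRF1 core on the opposite strand, chr15:82354292-82354391, reverse strand: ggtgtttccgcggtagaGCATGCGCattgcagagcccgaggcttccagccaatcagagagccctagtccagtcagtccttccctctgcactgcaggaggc
Sdhd, GABP motif on the opposite strand, chr9:50603850-50603949, reverse strand: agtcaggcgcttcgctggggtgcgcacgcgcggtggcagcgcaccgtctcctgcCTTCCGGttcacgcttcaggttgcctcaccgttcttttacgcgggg
Ndufs3, GABP motif on the same strand, chr2:90904722-90904821, reverse strand: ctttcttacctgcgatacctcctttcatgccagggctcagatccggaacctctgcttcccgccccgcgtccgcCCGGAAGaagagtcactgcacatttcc

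All 39 measured genes were bright, with means over the 18 arrays from 11.30 (Sdhc) to 14.09 (Cox5b) on the log2 scale, where the array values ran from 2.67 to 14.39. The dimmest lay at percentile 98.4 of all probe sets. A signal this near the top of the scale can understate a change. Outside the mutant LPS 3 h group the replicates lay close together. The median SD over the 39 genes was 0.03 in control PBS, 0.05 in mutant PBS, 0.04 in control LPS 3 h, and 0.03 in each LPS 30 min group (n = 3 each). In mutant LPS 3 h the median SD was 0.18 and the highest 0.67. Over the 16 arrays other than the second-day arrays, a gene's lowest and highest values lay 0.07 to 0.64 apart, with a median of 0.23. The plot by array shows this band and the arrays outside it.

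**Figure D1:**
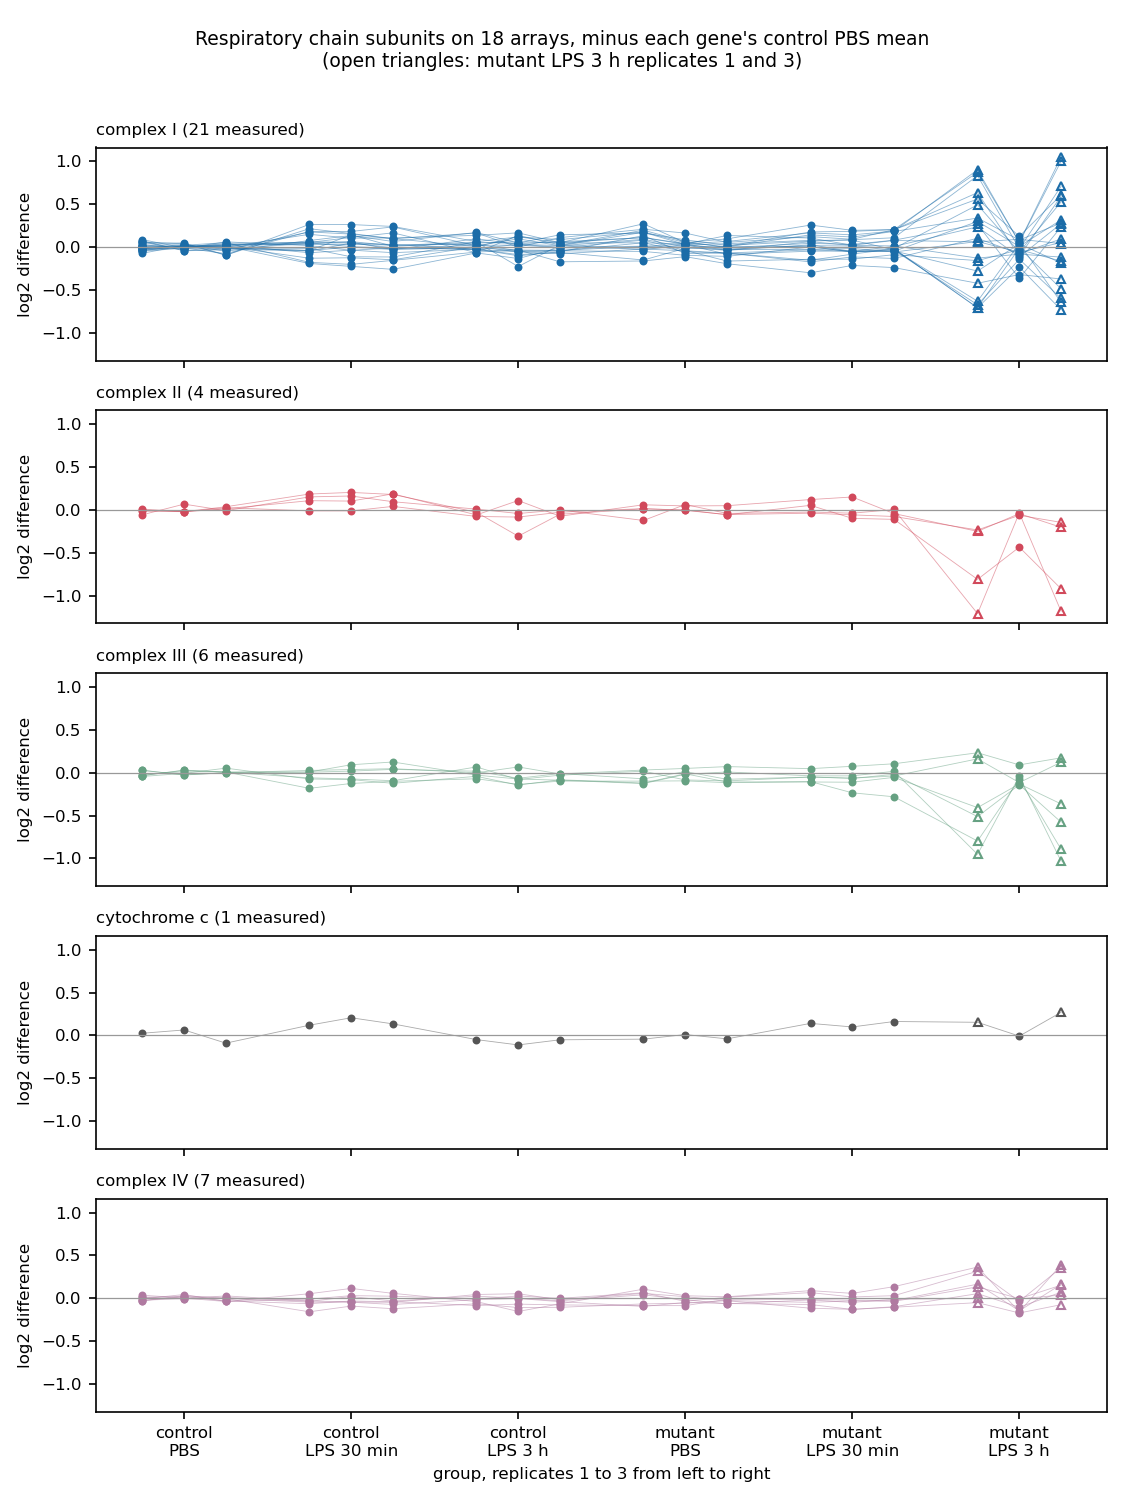
Log2 difference of each measured gene from its own mean in control PBS hearts (vertical axis) on each of the 18 arrays (horizontal axis, by group, replicates 1 to 3 from left to right), in 1 panel per complex; thin lines join the values of a gene and have no other meaning. Open triangles are mutant LPS 3 h replicates 1 and 3, where genes of complex I spread both ways, those of complex II lie below 0 and most of complex IV lie above it, while replicate 2 lies near the other arrays.

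In control hearts, 3 h of LPS moved none of the 39 genes past the threshold (limma with Benjamini-Hochberg adjustment over 45037 probe sets, adjusted p under 0.05), where 0.775% of all genes passed. The median log2 change was -0.02, the range -0.13 to 0.12, and the 95% intervals of all 39 lay between -0.45 and 0.45. No gene had an unadjusted p under 0.05. The smallest p belonged to Cox5a, a complex IV subunit, at -0.09 ± 0.07 (SE, adjusted p = 0.709 by limma). The fit took a single variance per probe set from all groups. The wide spread of the mutant LPS 3 h arrays thus entered these intervals and p-values. The median SE over the 39 genes was 0.09 here and in the LPS 3 h comparison in mutants alike. With the second-day arrays left out more of all genes passed, and with the arrays compared alone fewer did. None of the 39 passed in either fit. The 3 LPS arrays lay wholly above the 3 PBS arrays for 5 genes and wholly below for 9, against 11% and 9.76% of all genes and 16.7% and 13.8% of the 407 genes at least as bright as the dimmest of the list. By complex, those above were all of complex I (5 of 21), and those below were 2 of complex I, 2 of 4 of complex II, 2 of 6 of complex III and 3 of 7 of complex IV.

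At 30 min, again none of the 39 passed in either genotype by limma, against 0.0934% of all genes in control and 0.0275% in mutant hearts. In control hearts the changes ran from -0.23 to 0.26, with a median of 0.02 and 95% intervals between -0.41 and 0.62. Only 2 genes had an unadjusted p under 0.05. They were Ndufs8, a core complex I subunit that holds iron-sulfur clusters (-0.23 ± 0.08, SE, adjusted p = 0.412 by limma), and Ndufv1, the NADH-binding subunit (-0.18 ± 0.07, SE, adjusted p = 0.531). Both depend on the probe set. On Ndufs8 probe sets with means of 12.50, 11.60 and 11.30 the 30 min and PBS arrays overlapped, as on the Ndufv1 one with a mean of 12.36. On those with means of 12.68 (Ndufs8) and 12.41 (Ndufv1) the 30 min arrays were below. The arrays of 24 of the 39 genes did not overlap in control hearts, 13 higher and 11 lower at 30 min, against 16.2% and 13.4% of all genes and 28.5% and 14.5% of the equally bright ones. These were small steps shared by 3 replicates: for Ndufb9, an accessory complex I subunit named after its values were seen, the LPS 30 min arrays stood at 13.13, 13.14 and 13.12 and the PBS arrays at 13.26, 13.26 and 13.27. All LPS 30 min arrays were hybridized on a day without PBS arrays, so day and treatment cannot be told apart at 30 min. In mutant hearts the changes ran from -0.13 to 0.16, with a median of 0.00, 95% intervals between -0.44 and 0.47 and no unadjusted p under 0.05. There 4 genes were wholly higher and 4 wholly lower, against 12.3% and 11.2% of all genes. The spread of the second-day arrays entered the intervals and p-values at 30 min too. In a fit of the arrays compared alone, none of the 39 passed in either genotype. Of all genes, 795 rose and 445 fell in that fit in control hearts, and 123 and 91 in mutant hearts.

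No subunit was called different between the genotypes after PBS or at 30 min of LPS. After PBS, 0 of 39 passed by limma, where 0.0165% of all genes did. The differences (mutant minus control) ran from -0.16 to 0.14, with 95% intervals between -0.48 and 0.47 and no unadjusted p under 0.05. At 30 min of LPS, 0 of 39 passed, against 0.0165% of all genes. The differences ran from -0.24 to 0.10 and the intervals from -0.60 to 0.37. Sdhc, at -0.24 ± 0.11 (SE), was the only gene with an unadjusted p under 0.05 at 30 min (adjusted p = 0.9999 by limma). The spread of the second-day arrays entered these intervals and p-values as well. In fits of the arrays compared alone, again none of the 39 passed. Of all genes, 186 were then higher and 26 lower in mutants after PBS, and 267 and 89 at 30 min of LPS.

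**Figure D2:**
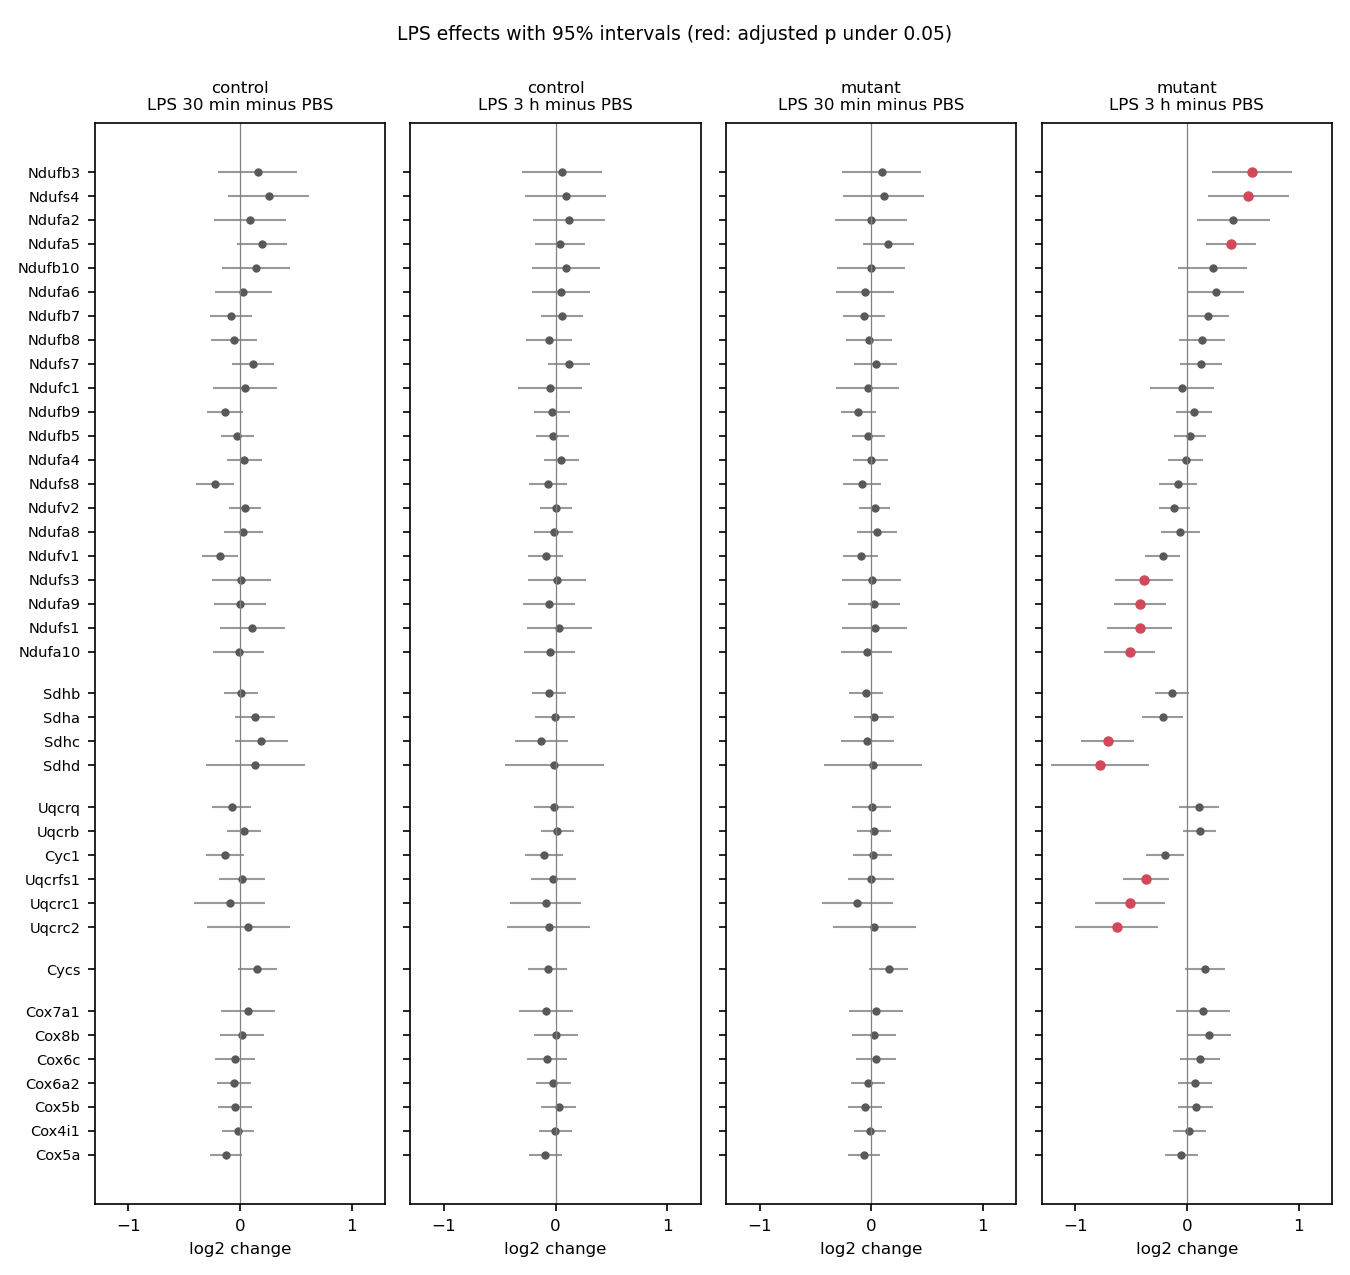
Fitted log2 change after LPS (horizontal axis) with its 95% interval for each of the 39 measured genes (rows, by complex), in control and mutant hearts at 30 min and 3 h; red points passed the adjusted threshold. Red points occur in mutant hearts at 3 h alone, 9 to the left and 3 to the right of 0.

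In mutant hearts at 3 h of LPS, 12 of the 39 genes passed by limma: 3 called risen (7.69%) and 9 called fallen (23.1%), where 9.9% and 16.1% of all genes, and 8.85% and 30% of the equally bright ones, were called risen and fallen. The share called, 30.8%, stood beside 26% of all genes. After quantile normalization the split was 4 risen and 7 fallen. Complex I held 3 risen and 4 fallen of 21, complex II 2 fallen of 4, complex III 3 fallen of 6, and neither complex IV nor cytochrome c had any. The median change over the list was 0.02, with a range of -0.78 to 0.58. In 8 of the 12 genes the 3 mutant LPS 3 h arrays overlapped the mutant PBS arrays. On the 2 second-day arrays, 19 of the 39 genes were above every one of the other 16 arrays (48.7%) and 15 were below every one (38.5%), against 12.6% and 16.7% of all genes and 29% and 41.5% of the equally bright ones. The 19 were 12 genes of complex I, 2 of complex III and 5 of complex IV. The 15 were 7 of complex I, all 4 of complex II and 4 of complex III. With the 2 second-day arrays left out, 0 genes rose and 2 fell, and in the fit on arrays of the same day none passed. The part of the 3′ to 5′ difference of these arrays in the subunit values was not tested. In a bulk heart sample, fewer cells of a type and less RNA per cell cannot be told apart.

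**Figure D3:**
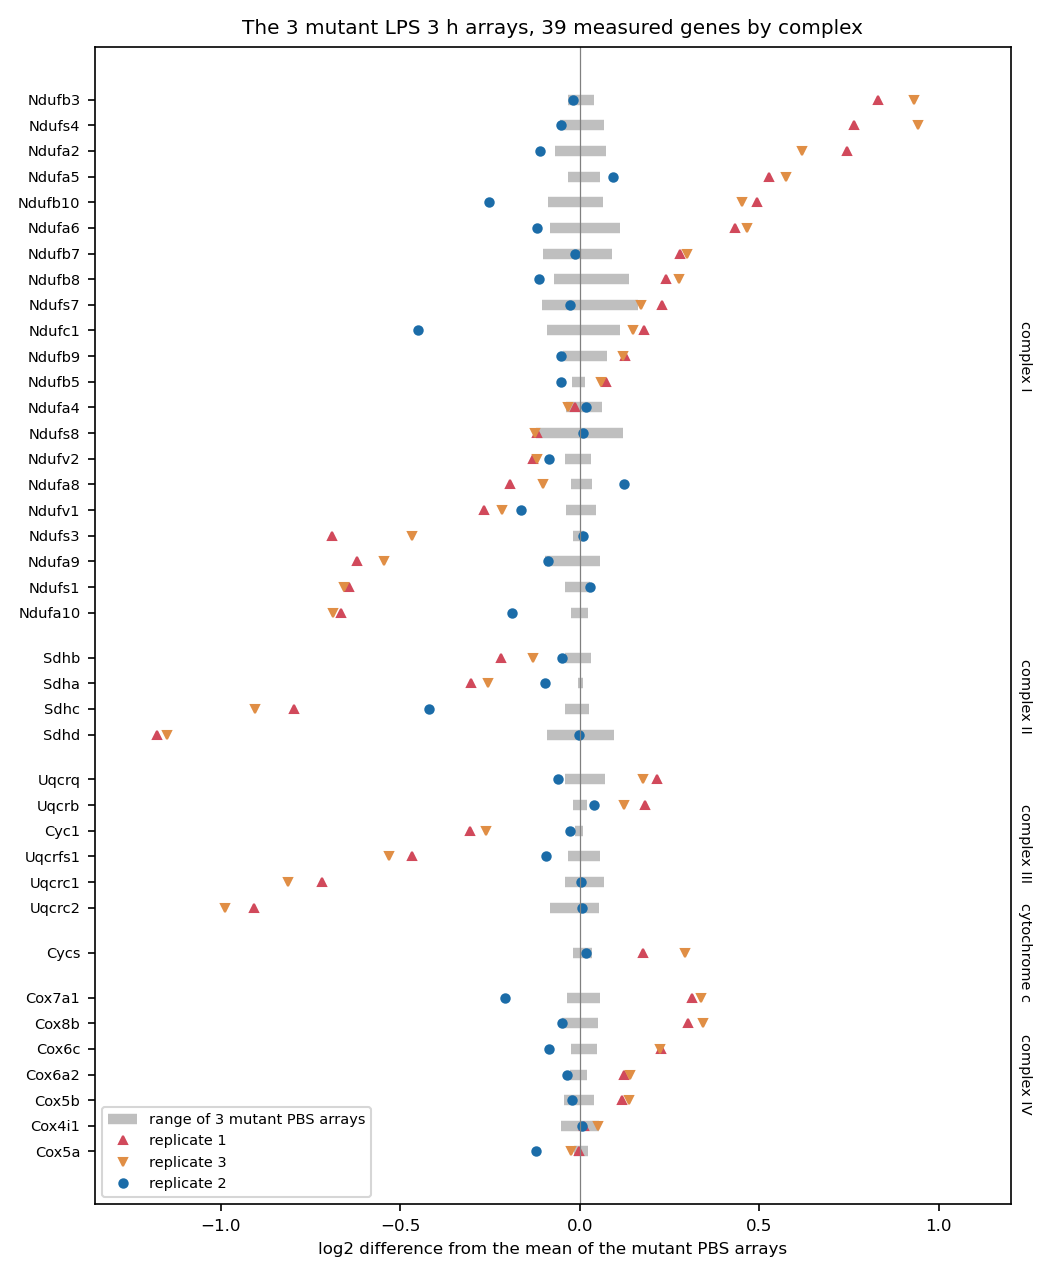
Log2 difference of each of the 3 mutant LPS 3 h arrays (markers) from the mean of the mutant PBS arrays (horizontal axis) for the 39 measured genes (rows, by complex); grey bars are the range of the 3 mutant PBS arrays. Replicates 1 and 3 lie next to each other and reach from -1.18 for Sdhd to 0.94 for Ndufs4, while replicate 2 lies mostly within or just left of the grey bars.

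In complex I, Ndufa10, an accessory subunit on the matrix side of the membrane arm, had the smallest p. Ndufa10 was at 12.88, 12.92 and 12.99 (log2, replicates 1 to 3) in control hearts after PBS, at 12.95, 12.89 and 12.92 after 30 min of LPS and at 12.91, 12.88 and 12.85 after 3 h. In mutant hearts it was at 12.91, 12.89 and 12.86, at 12.78, 12.85 and 12.91 and, after 3 h, at 12.22, 12.70 and 12.20. Replicate 2 stood below every other array but the second-day arrays, which were lower by a further step. The fitted change was -0.51 ± 0.11 (SE, adjusted p = 0.00624 by limma). Ndufa9 in control hearts read 12.80, 12.80 and 12.76 after PBS, 12.74, 12.83 and 12.78 at 30 min of LPS and 12.76, 12.70 and 12.73 at 3 h. It read 12.64, 12.77 and 12.79, 12.79, 12.73 and 12.75 and, at 3 h, 12.11, 12.65 and 12.19 in mutant hearts. Ndufa9, an accessory subunit at the joint of the 2 arms, was low on the second-day arrays alone, and replicate 2, at 12.65, was within the mutant PBS range of 12.64 to 12.79. The change was -0.42 ± 0.11 (SE, adjusted p = 0.0170). For Ndufa5, control hearts gave 12.55, 12.46 and 12.39 after PBS, 12.65, 12.65 and 12.70 at 30 min and 12.48, 12.56 and 12.48 at 3 h. From mutant hearts came 12.56, 12.47 and 12.48, 12.64, 12.65 and 12.67 and, at 3 h, 13.03, 12.59 and 13.07. Ndufa5, an accessory subunit of the matrix arm, was highest on the second-day arrays, and replicate 2 lay just above the mutant PBS arrays. The change was 0.40 ± 0.11 (SE, adjusted p = 0.0174).

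Ndufa4 was the brightest gene listed for complex I. It is named as a complex I subunit but was later found with complex IV. Control hearts had Ndufa4 at 13.31, 13.26 and 13.27 after PBS, 13.24, 13.42 and 13.29 at 30 min and 13.32, 13.34 and 13.33 at 3 h. Mutant hearts had it at 13.33, 13.31 and 13.41, 13.38, 13.30 and 13.35 and, at 3 h, 13.34, 13.37 and 13.32. Its values on all 3 mutant LPS 3 h arrays lay within the range of the other 15, and the change was -0.01 ± 0.07 (SE, adjusted p = 0.939 by limma).

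Other complex I genes, chosen after their values were seen, also stood apart on the second-day arrays. Ndufb3, a small subunit of the distal membrane arm, stood at 12.68 and 12.78 on the second-day arrays and 11.83 on replicate 2, with mutant PBS at 11.89, 11.81 and 11.84. The fitted change, 0.58 ± 0.17 (SE, adjusted p = 0.0249 by limma), thus rested on replicates 1 and 3. Ndufs4, an accessory subunit whose loss causes Leigh syndrome in humans and in mice, stood at 12.05 and 12.23 on the second-day arrays and 11.23 on replicate 2, with mutant PBS at 11.35, 11.23 and 11.27. Its fitted change was 0.55 ± 0.17 (SE, adjusted p = 0.0319). The core subunits Ndufs1 and Ndufs3 of the matrix arm were called fallen in the same way. Ndufs1, which carries iron-sulfur clusters, was at 11.98 and 11.97 on the second-day arrays and 12.66 on replicate 2. Ndufs3 was at 12.01 and 12.23 and at 12.71 on replicate 2. Their fitted changes were -0.42 ± 0.14 and -0.38 ± 0.12 (SE, adjusted p = 0.0394 and 0.0382 by limma). Ndufa6, with the NRF1 core printed above, was at 13.04 and 13.07 on the second-day arrays against 12.49 on replicate 2, and did not pass (0.26 ± 0.12, SE, adjusted p = 0.132).

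**Figure D4:**
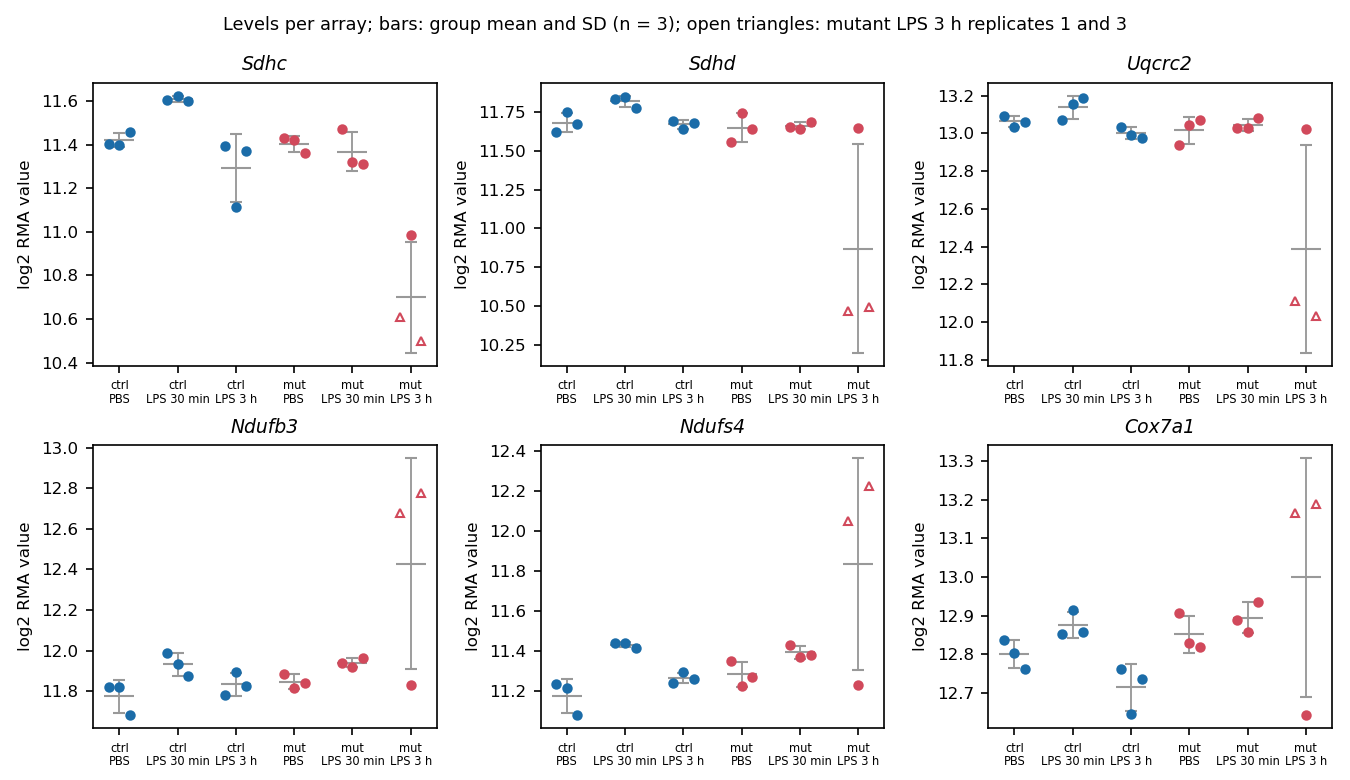
Log2 levels (vertical axes) of 6 genes in the 6 groups (horizontal axes); points are arrays, bars the group mean and SD (n = 3), and open triangles mutant LPS 3 h replicates 1 and 3. The triangles lie apart from all other points in every panel, below them for Sdhc, Sdhd and Uqcrc2 and above them for Ndufb3, Ndufs4 and Cox7a1.

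Complex II has 4 subunits, all encoded in the nucleus. Sdha is the flavoprotein that oxidises succinate, Sdhb the iron-sulfur subunit, and Sdhc and Sdhd the membrane anchors that hold the ubiquinone site. The Sdhc values were 11.41, 11.40 and 11.46 after PBS, 11.61, 11.63 and 11.60 at 30 min and 11.39, 11.11 and 11.37 at 3 h in control hearts. The mutant values were 11.43, 11.42 and 11.36, 11.47, 11.32 and 11.31 and, at 3 h, 10.61, 10.99 and 10.50. Sdhc was the only one of the 4 whose replicate 2 stood clear of the mutant PBS arrays by more than 0.1, at 10.99 against 11.36 to 11.43, and control LPS 3 h replicate 2 was the lowest control array. Each of these replicate 2 arrays was the only one of its array lot. The fitted change was -0.71 ± 0.11 (SE, adjusted p = 0.00148 by limma). Sdhd in control hearts read 11.62, 11.75 and 11.67 after PBS, 11.83, 11.84 and 11.78 at 30 min of LPS and 11.69, 11.64 and 11.68 at 3 h. It read 11.56, 11.74 and 11.64, 11.66, 11.64 and 11.69 and, at 3 h, 10.47, 11.64 and 10.50 in mutant hearts. Sdhd was 1.15 to 1.18 below the mutant PBS mean on the second-day arrays, and replicate 2 lay at that mean. The fitted change was -0.78 ± 0.21 (SE, adjusted p = 0.0179).

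For Sdha, control hearts gave 12.39, 12.36 and 12.40 after PBS, 12.49, 12.48 and 12.57 at 30 min and 12.32, 12.49 and 12.31 at 3 h. From mutant hearts came 12.44, 12.43 and 12.43, 12.50, 12.53 and 12.34 and, at 3 h, 12.13, 12.34 and 12.18. Sdha was lowest on the second-day arrays, with replicate 2 next to control LPS 3 h replicates 1 and 3, and did not pass (-0.22 ± 0.08, SE, adjusted p = 0.0779 by limma). A second Sdha probe set, nearly as bright with a mean of 12.34, was called fallen by 0.61 (adjusted p = 0.0291), and a dim one, with a mean of 5.72, by 0.97 (adjusted p = 0.0216). On the brighter of these, the second-day arrays were 0.95 below mutant PBS and replicate 2 was 0.05 above it. Control hearts had Sdhb at 13.48, 13.46 and 13.51 after PBS, 13.47, 13.47 and 13.52 at 30 min and 13.41, 13.40 and 13.46 at 3 h. Mutant hearts had it at 13.50, 13.48 and 13.43, 13.45, 13.43 and 13.41 and, at 3 h, 13.25, 13.42 and 13.34. Sdhb moved least of the 4, and the second-day arrays were below all others by a small margin (-0.13 ± 0.07, SE, adjusted p = 0.192). With the second-day arrays left out, replicate 2 was the only mutant LPS 3 h array, and Sdhc differed from mutant PBS by -0.42. Sdha, Sdhb and Sdhd differed by -0.10, -0.05 and -0.002 on that array. In control hearts the Sdhc change was -0.13 ± 0.11 (SE, adjusted p = 0.765 by limma) in the fit of all arrays.

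In complex III, the called genes were the Rieske iron-sulfur protein Uqcrfs1 and the core proteins Uqcrc1 and Uqcrc2. The Uqcrfs1 values were 12.67, 12.70 and 12.70 after PBS, 12.70, 12.71 and 12.73 at 30 min and 12.71, 12.62 and 12.68 at 3 h in control hearts. The mutant values were 12.62, 12.70 and 12.61, 12.64, 12.62 and 12.67 and, at 3 h, 12.18, 12.55 and 12.11. Replicate 2, at 12.55, was below all arrays other than the second-day arrays, and the fitted change was -0.36 ± 0.10 (SE, adjusted p = 0.0171 by limma). Uqcrc2 in control hearts read 13.09, 13.04 and 13.06 after PBS, 13.07, 13.16 and 13.19 at 30 min of LPS and 13.04, 12.99 and 12.98 at 3 h. It read 12.94, 13.04 and 13.07, 13.03, 13.03 and 13.08 and, at 3 h, 12.11, 13.02 and 12.03 in mutant hearts. Uqcrc2 was 0.91 and 0.99 below the mutant PBS mean on the second-day arrays, with replicate 2 at that mean. The change was -0.63 ± 0.18 (SE, adjusted p = 0.0211). For Uqcrc1, control hearts gave 13.18, 13.21 and 13.27 after PBS, 13.15, 13.14 and 13.10 at 30 min and 13.18, 13.08 and 13.14 at 3 h. From mutant hearts came 13.10, 13.21 and 13.11, 13.12, 12.99 and 12.94 and, at 3 h, 12.42, 13.14 and 12.33. Uqcrc1 had the same shape, with a change of -0.51 ± 0.15 (SE, adjusted p = 0.0265).

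Control hearts had Uqcrb at 13.77, 13.72 and 13.75 after PBS, 13.77, 13.78 and 13.79 at 30 min and 13.75, 13.81 and 13.73 at 3 h. Mutant hearts had it at 13.78, 13.80 and 13.82, 13.79, 13.82 and 13.85 and, at 3 h, 13.98, 13.84 and 13.92. Uqcrb, a small subunit near the ubiquinone site and the brightest of complex III, went the other way on the second-day arrays. The margin was small on the probe set used, which did not pass (0.11 ± 0.07, SE, adjusted p = 0.247 by limma). A second Uqcrb probe set, with a mean of 11.73, was 0.80 above mutant PBS on the second-day arrays and 0.41 below it on replicate 2, and did not pass either. Without the second-day arrays, Uqcrc1 and Uqcrc2 differed from mutant PBS by 0.00 and 0.01 on the probe sets used. A second Uqcrc2 probe set, with a mean of 12.68, was 0.53 below mutant PBS on replicate 2.

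Cytochrome c (Cycs) carries electrons from complex III to complex IV, and starts apoptosis when released. The Cycs values were 12.92, 12.96 and 12.80 after PBS, 13.01, 13.10 and 13.03 at 30 min and 12.84, 12.78 and 12.84 at 3 h in control hearts. The mutant values were 12.85, 12.90 and 12.85, 13.03, 12.99 and 13.05 and, at 3 h, 13.04, 12.88 and 13.16. On this probe set the LPS 30 min arrays were above the PBS arrays of the same genotype, as for 16.2% of all genes in control and 12.3% in mutant hearts. The changes were 0.15 ± 0.08 and 0.16 ± 0.08 (SE, adjusted p = 0.690 and 0.7997 by limma). On the Cycs probe sets with means of 12.11 and 12.76 these arrays overlapped in both genotypes. Day and treatment cannot be told apart at 30 min. On the probe set used, the mutant LPS 3 h arrays overlapped those at 30 min. Its change at 3 h was -0.07 ± 0.08 in control and 0.16 ± 0.08 in mutant hearts (SE, adjusted p = 0.851 and 0.166 by limma). A dim Cycs probe set, with a mean of 5.12, was called fallen by 0.64 in mutant hearts at 3 h (adjusted p = 0.0135 by limma). Those with means of 12.11 and 12.76 did not pass, and on replicate 2 they were 0.36 and 0.20 below mutant PBS.

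Complex IV had no call. The changes of its 7 measured genes in mutant hearts at 3 h ran from -0.05 to 0.20, and 5 of the 7 were above all other 16 arrays on the second-day arrays. Cox5b in control hearts read 14.06, 14.08 and 14.11 after PBS, 14.05, 14.04 and 14.04 at 30 min of LPS and 14.13, 14.14 and 14.07 at 3 h. It read 14.14, 14.10 and 14.06, 14.04, 14.05 and 14.05 and, at 3 h, 14.22, 14.08 and 14.24 in mutant hearts. Cox5b, the brightest gene of the list, was highest on the second-day arrays, and replicate 2 lay within mutant PBS (0.08 ± 0.07, SE, adjusted p = 0.449 by limma). For Cox6c, control hearts gave 13.37, 13.37 and 13.32 after PBS, 13.29, 13.32 and 13.31 at 30 min and 13.27, 13.28 and 13.27 at 3 h. From mutant hearts came 13.27, 13.27 and 13.34, 13.34, 13.33 and 13.33 and, at 3 h, 13.52, 13.21 and 13.51. Cox6c, a small membrane subunit, was highest on the second-day arrays and lowest on replicate 2 (0.12 ± 0.08, SE, adjusted p = 0.310). Its second probe set, with a mean of 10.60, was 0.78 above mutant PBS on the second-day arrays and 0.42 below it on replicate 2.

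Heart and skeletal muscle use their own isoforms of 3 complex IV subunits, Cox6a2, Cox7a1 and Cox8b, while most other tissues use Cox6a1, Cox7a2 and Cox8a. Control hearts had Cox8b at 13.35, 13.40 and 13.32 after PBS, 13.35, 13.39 and 13.38 at 30 min and 13.35, 13.38 and 13.36 at 3 h. Mutant hearts had it at 13.42, 13.32 and 13.37, 13.42, 13.37 and 13.39 and, at 3 h, 13.67, 13.32 and 13.71. Cox8b was high on the second-day arrays alone (0.20 ± 0.09, SE, adjusted p = 0.133 by limma). The Cox7a1 values were 12.84, 12.80 and 12.76 after PBS, 12.85, 12.92 and 12.86 at 30 min and 12.76, 12.65 and 12.74 at 3 h in control hearts. The mutant values were 12.91, 12.83 and 12.82, 12.89, 12.86 and 12.94 and, at 3 h, 13.16, 12.64 and 13.19. Cox7a1 was high on the second-day arrays and lowest of all on replicate 2 (0.15 ± 0.11, SE, adjusted p = 0.364). Cox6a2 in control hearts read 13.53, 13.59 and 13.56 after PBS, 13.51, 13.51 and 13.49 at 30 min of LPS and 13.54, 13.56 and 13.52 at 3 h. It read 13.46, 13.51 and 13.50, 13.49, 13.43 and 13.46 and, at 3 h, 13.61, 13.46 and 13.63 in mutant hearts. On the probe sets used, Cox6a2 had the smallest differences of the 3 (0.08 ± 0.07, SE, adjusted p = 0.466 by limma). Its second probe set, with a mean of 12.45, was 0.53 above mutant PBS on the second-day arrays and 0.42 below it on replicate 2. The partner Cox8a was called risen at 0.34 (adjusted p = 0.0111) and stood above mutant PBS on all 3 arrays: 11.58, 11.38 and 11.54 against 11.22, 11.21 and 11.05. Cox6a1 stood at 13.19, 13.05 and 13.16 against 13.04, 12.94 and 12.81, and Cox7a2 at 13.60, 13.31 and 13.59 against 13.46, 13.38 and 13.40. Neither passed.

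Replicate 2 of the mutant LPS 3 h group, hybridized with the PBS arrays, was below all other 15 arrays (the second-day arrays aside) for 14 of the 39 genes (35.9%) and above them for 1, Ndufa8, against 13.9% and 15.6% of all genes and 26.5% and 7.13% of the equally bright ones. The 14 were 8 of complex I, 1 of complex II, 2 of complex III and 3 of complex IV. On the probe sets used, the differences from the mutant PBS mean were small for most, with a median over the 39 genes of -0.05. The furthest were Ndufc1 at -0.45, Sdhc at -0.42, Ndufb10 at -0.25 and Cox7a1 at -0.21. These sizes depend on the probe set. Other bright probe sets were at -0.68 for Ndufb5 (-0.05 on the one used), -0.53 for Uqcrc2 and -0.42 for Cox6a2. The second of Sdhc, in contrast, was at 0.01. Ndufc1, an accessory subunit of the membrane arm named after its values were seen, stood at 12.67 on this array, 12.81 on control LPS 3 h replicate 2 and 12.99 to 13.23 on the other 14. Without the second-day arrays it fell by 0.45 (adjusted p = 0.0261 by limma), where 5.29% of all genes rose and 6.06% fell. This comparison rests on 1 mutant LPS array, whose spread is taken from the other groups. A second Ndufc1 probe set, nearly as bright with a mean of 12.82, was 0.13 below mutant PBS on that array.

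Marker levels of several cell types differed on these arrays. The counts called here stand beside 9.9% of all genes called risen and 16.1% called fallen in mutant LPS 3 h. The mean log2 level of 12 cardiomyocyte markers was 13.20 and 13.24 on the second-day arrays, 13.37 on replicate 2 and 13.44 to 13.55 on the other 15, and 3 of the 12 were called fallen in mutant LPS 3 h and none risen. The 6 measured of 8 adipocyte markers were at a mean of 8.79 on replicate 2, 7.76 and 8.02 on the second-day arrays and 6.76 to 7.97 on the others. Of these 6, 3 were called risen and none fallen. Among them the brown fat gene Ucp1 stood at 9.13 on replicate 2, at 5.48 and 5.67 on the second-day arrays and at 4.62 to 8.69 on the other 15. Of 4 lung markers 1 was called risen and none fallen. Scgb1a1, a secretory protein of the airway, was at 9.90 on replicate 2 and 8.80 on replicate 3. On replicate 1 it was at 3.66, and elsewhere at 3.56 to 3.94. The surfactant gene Sftpc was at 5.18, 5.31 and 5.03 on these 3 arrays and 4.53 to 5.39 elsewhere. The 10 leukocyte markers had a mean of 7.83 and 7.87 on the second-day arrays, 7.40 on replicate 2 and 6.58 to 7.47 on the others, and 2 were called risen. Of 10 endothelial markers 7 were called fallen, with means of 8.21 and 8.49 on the second-day arrays, 9.10 on replicate 2 and 8.35 to 9.60 on the others. Of 6 fibroblast markers 3 were called fallen and none risen, with means of 9.95 and 10.24 on the second-day arrays, 10.63 on replicate 2 and 10.36 to 10.88 on the others. Of 6 skeletal muscle markers 2 were called risen and 1 fallen, with means of 5.69 and 5.98 on the second-day arrays, 5.64 on replicate 2 and 5.39 to 5.73 on the others. The part of these cells in the subunit values was not tested.

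Between genotypes at 3 h of LPS, 13 of the 39 passed by limma, 3 higher and 10 lower in mutants, against 9.75% and 13.2% of all genes (23% in either direction) and 7.86% and 29.5% of the equally bright ones. This comparison shares the mutant LPS 3 h arrays with the LPS effect in mutants, so its values are not a second observation. Sdhc differed by -0.59 ± 0.11 (SE, adjusted p = 0.00674 by limma), Ndufa10 by -0.50 ± 0.11 (adjusted p = 0.0101), Uqcrfs1 by -0.39 ± 0.10 (adjusted p = 0.0155) and Sdhd by -0.80 ± 0.21 (adjusted p = 0.0186). The first 3 had all 3 mutant arrays below all 3 control arrays. So had 7 of the 39 in all, against 10.2% of all genes and 24.3% of the equally bright ones. Sdhd did not, since replicate 2 at 11.64 met control replicate 2 at 11.64. Ndufv1, named after its values were seen, was the one gene called here and not in the LPS effect in mutants, at -0.28 ± 0.07 (SE, adjusted p = 0.0193). That distinction depends on the probe set: in the LPS effect in mutants the Ndufv1 probe set used had a change of -0.22 (adjusted p = 0.0508 by limma), and its other 2, with means of 12.36 and 12.41, were called fallen by 0.41 and 0.28 (adjusted p = 0.0153 and 0.0185). With the second-day arrays left out none of the 39 passed, and with each array centred on its median the split was 1 higher and 13 lower.

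The difference between genotypes in the 3 h LPS effect itself, the interaction, passed for none of the 39 genes by limma, where 0.159% of all genes passed. Its largest sizes were -0.76 ± 0.29 for Sdhd (SE, adjusted p = 0.155), -0.58 ± 0.16 for Sdhc (adjusted p = 0.104) and -0.57 ± 0.25 for Uqcrc2 (adjusted p = 0.196). An unadjusted p under 0.05 was found for 10 genes. A larger effect of LPS on a subunit in mutants than in controls was thus not shown.

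Second probe sets of the same genes bear on these values, since 23 of the 39 genes had more than 1. Over the 82 probe sets, 39 were above all other 16 arrays on the second-day arrays and 19 were below. The share over all probe sets was not computed. With 1 probe set per gene, 12.6% of all genes were above and 16.7% below. Nothing particular to the subunits is read from the probe set counts. In 3 genes, Ndufa10, Ndufs4 and Ndufv2, 1 probe set was above and another below. Ndufs4 was the single gene with probe sets called in opposite directions by limma: the probe set used was called risen by 0.55, and another, with a mean of 7.67, was called fallen by 1.55 (adjusted p = 0.0120). That one stood at 6.01 and 5.66 on the second-day arrays and at 7.96 on replicate 2, within the 7.52 to 8.23 of the other arrays. The second Ndufa10 probe set, with a mean of 9.08, was 0.59 above mutant PBS on the second-day arrays where the probe set used was 0.68 below it. For Uqcrc2 the second probe set, nearly as bright with a mean of 12.68, was 0.03 above mutant PBS on the second-day arrays. The probe set used was 0.95 below there. On replicate 2 the second Uqcrc2 probe set was 0.53 below mutant PBS where the probe set used was 0.01 above. For Sdhc both probe sets were called fallen, by 0.71 and 0.82 (adjusted p = 0.00148 and 0.0199), but replicate 2 differed from mutant PBS by -0.42 in the first and 0.01 in the second. For Ndufa5 the second probe set was 0.70 above mutant PBS on the second-day arrays and 0.26 below it on replicate 2.

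**Figure D5:**
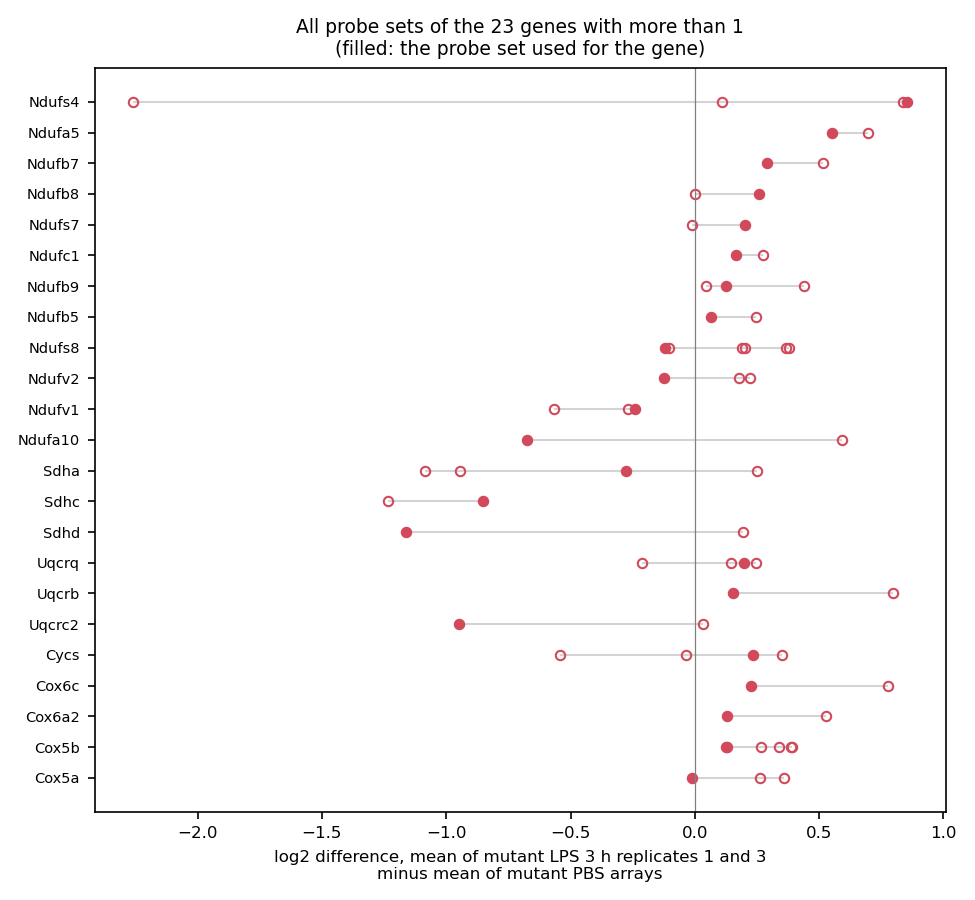
Log2 difference of the mean of mutant LPS 3 h replicates 1 and 3 from the mean of the mutant PBS arrays (horizontal axis) for every probe set of the 23 genes with more than 1 (rows); filled points are the probe sets used for the genes. Probe sets of a gene lie on both sides of 0 for Ndufs4, Ndufa10, Sdhd and others.

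A further 26 genes of the same complexes, 23 of them measured, were read beside the list. Of these, none passed in control hearts at 3 h by limma, where Ndufa1 and Ndufa3 had the smallest p (-0.14 and 0.11, adjusted p = 0.579 and 0.695). Against 9.9% and 16.1% of all genes, 3 were called risen and 2 fallen in mutant hearts at 3 h. They included Cox8a, Uqcr10, a small complex III subunit (0.35, adjusted p = 0.0130), Cox7c, whose probe set was dim at 6.27 after PBS (-1.13, adjusted p = 0.0142), and Cox7a2l, which helps join complexes into supercomplexes (-0.31, adjusted p = 0.0220). Without the second-day arrays none passed. Of the 16 ATP synthase genes, none passed in control hearts, where Atp5pb and Atp5f1d had the smallest p (-0.20 and -0.13, adjusted p = 0.570 and 0.597). In mutants the catalytic head subunits Atp5f1b and Atp5f1a were called fallen, by 0.51 and 0.30 (adjusted p = 0.00708 and 0.0143), and none rose. Without the second-day arrays, which left replicate 2 as the only mutant LPS 3 h array, neither passed. On that array Atp5pb of the peripheral stalk was 0.40 below mutant PBS. Atp5f1b was at 12.78 and 12.80 on the second-day arrays and 13.28 on replicate 2, with mutant PBS at 13.34, 13.51 and 13.53.

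Among 17 measured regulators of respiratory genes, none passed in control hearts at 3 h by limma. The smallest p there belonged to Ppargc1b, a coactivator of mitochondrial genes (-0.23, adjusted p = 0.539), and Gabpb1, the partner subunit of Gabpa (0.36, adjusted p = 0.552). In mutants 1 was called risen and 6 fallen, against 9.9% and 16.1% of all genes. Gabpa, the DNA-binding subunit of GABP, stood at 6.73, 7.31 and 5.25 on the mutant LPS 3 h arrays and at 8.22, 8.21 and 8.41 after PBS. All 3 arrays were below, replicate 2 by the least, and the change was -1.85 ± 0.34 (SE, adjusted p = 0.00329 by limma). Tfam, which packages and transcribes mitochondrial DNA, stood at 7.62, 7.87 and 7.10 against 8.31, 8.37 and 8.31, a change of -0.80 ± 0.15 (SE, adjusted p = 0.00319). Control LPS 3 h replicate 2 was the lowest control array for both, at 7.58 and 8.13. Without the second-day arrays, Gabpa was lower than in mutant PBS by 0.97 and Tfam by 0.46. Replicate 2 was then the only mutant LPS 3 h array, so these sizes rest on 1 array. Yy1, a zinc finger factor, and Tfb2m, a mitochondrial transcription factor, had called changes of -0.95 and -1.81 (adjusted p = 0.00573 and 0.00902), and neither passed without the second-day arrays. Of the 5 genes with the GABP letters in their promoter window, Sdhd and Ndufs3 were called fallen and none risen in mutant hearts at 3 h, and of the 5 with the NRF1 core, Uqcrc1 was called fallen and none risen. Beside 23.1% of the list and 30% of the equally bright genes called fallen, nothing is read from counts this small.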

How the data were processed

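Heart RNA was measured on 18 Affymetrix Mouse 430 2.0 arrays, 3 per group. The table the authors deposited holds log2 values from the robust multi-array average (RMA), per the submitters' processing notes. RMA scales arrays to each other, which can hide a shift shared by many genes; the array medians still differed, at 4.71 to 4.97. Hybridization dates and array lots came from the text fields (other values) of the experiment files deposited by the authors, 1 per array.

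The 64 control probe sets were left out, and 45037 were tested. A single symbol was given for 34945, several for 932 and none for 9160. No 2 arrays were copies: the smallest SD of the difference between arrays was 0.156. Group means were fitted on all 18 arrays with limma 3.58.1 in R 4.3.3 (lmFit, eBayes), with p-values adjusted over all probe sets by Benjamini-Hochberg at 0.05. The script was tested on simulated data. Precision is limited by the 3 arrays of a group. It is also limited by the single variance per probe set, which takes in the wide spread of the mutant LPS 3 h arrays in every comparison.

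Members and lists were chosen with earlier results of these data known. Values on every array are given for all complex II genes, Cycs, the brightest gene and the 3 with the smallest p (mutants, LPS 3 h) of complexes I, III and IV, the muscle isoforms, and up to 4 genes called in any other comparison. From each other list, up to 4 called genes with the smallest p, or the 2 with the smallest p, are named.

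Alternatives were other array sets, blocks for day, lot and replicate number, quantile scaling, centring, a filter on dim probe sets, array weights, agreement of all probe sets of a gene, and leaving out each array.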

Additional observations from a re-analysis of the deposited data

How the results depend on the processing

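The 12 called genes of the LPS 3 h comparison in mutants became 2 without the second-day arrays, 1 with day as a block, 0 with arrays of the same day, 0 in a fit of the arrays compared alone, 7 where every probe set of a gene had to be called one way, and 2 with array lot as a random block, an alternative chosen after the data were seen. A called gene with 1 probe set meets the rule on agreement by itself. Such genes were Ndufb3, Ndufa9, Ndufs1, Ndufs3, Uqcrc1 and Uqcrfs1, for which agreement was not tested. Among the called genes with more than 1 probe set, Sdhc alone met the rule. Ndufa10, Ndufa5, Ndufs4, Sdhd and Uqcrc2 did not. Leaving out 1 array gave 2 to 24. The count was 24 without mutant LPS 3 h replicate 2, 5 and 2 without replicates 1 and 3, and 7, 2 and 3 without mutant PBS replicates 1, 2 and 3. On the probe sets used, Uqcrc2 and Uqcrc1 turned from a called fall to 0.0054 and 0.0027 without the second-day arrays. The day block and the fit on arrays of the same day gave the same values. The 13 calls between genotypes at 3 h became 0 without the second-day arrays, 0 with the day block, 0 with arrays of the same day, 0 with the arrays compared alone, 0 with the lot block and 8 under agreement of all probe sets. Here too, a called gene with 1 probe set met the rule on agreement by itself. Leaving out 1 array gave 1 to 25 calls between genotypes at 3 h. The count was 25 without mutant replicate 2, and 4 and 1 without mutant replicates 1 and 3. It was 2 and 6 without control replicates 1 and 3. The interaction, with 0 calls, had 11 with array weights and 0 to 20 with 1 array left out, the 20 without mutant LPS 3 h replicate 2. Array weights gave, on the probe sets used, 2 calls in control hearts at 30 min (Ndufs4 and Ndufs8) and 1 between genotypes at 30 min (Sdhc). No setting run gave a call in control hearts at 3 h, in mutant hearts at 30 min or between genotypes after PBS. Day cannot be blocked for 30 min against PBS. For the other settings and comparisons the counts stayed within 1.5 times. Replicate numbers did not pair the arrays: same-numbered arrays of different groups had residual correlations of -0.32 to 0.36, over 0.1 in 10 of 45. With the replicate block the counts were 12 in mutants at 3 h, 13 between genotypes at 3 h and 0 elsewhere. Of 22 changes of named genes, 9 lost their call and 2 reversed without the second-day arrays.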

Other observations

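Assembly factors build the complexes but are not part of them, and 38 of 39 listed were measured. None passed in control hearts after 3 h of LPS by limma, where Sdhaf3 and Ndufaf5 had the smallest p (0.33 and 0.21, adjusted p = 0.296 and 0.584). In mutant hearts 6 were called risen and 11 fallen. Without the second-day arrays fewer were called, as over all genes, and that fit held 1 mutant LPS 3 h array. In the fit of all arrays, 9.9% of all genes were called risen and 16.1% fallen in mutant hearts at 3 h. Ttc19, which acts on complex III, and Coa5, which acts on complex IV, were called fallen by 0.45 and 0.77 (adjusted p = 0.00652 and 0.00671 by limma). The complex I factors Ndufaf2 and Ndufaf3 were called risen by 1.04 and 0.69 (adjusted p = 0.00747 and 0.0113). Ndufaf2 was at 9.13 and 9.42 on the second-day arrays and 8.03 on replicate 2, with mutant PBS at 7.97, 7.73 and 7.75.

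Other genes of these lists, chosen after their values were seen, differed on mutant LPS 3 h replicate 2. Without the second-day arrays, replicate 2 was the only mutant LPS 3 h array. In that fit Sco1, a copper chaperone of complex IV, was 1.05 below mutant PBS, and its interaction with genotype was -1.01. It stood at 4.92 on replicate 2, near the dim end, and at a mean of 5.97 ± 0.06 (SD, n = 3) after PBS. Sdhaf2, which attaches the flavin of Sdha, was 0.46 above mutant PBS in the same fit. It was at 9.78 on replicate 2 but 8.42 and 8.71 on the second-day arrays, with mutant PBS at 9.21, 9.44 and 9.29. In control hearts at 30 min the fit of all arrays called none of the 38 assembly factors, while leaving out the second-day arrays gave 6 risen and none fallen, where 1.62% of all genes rose. The largest was Tmem126b, a complex I factor, at 0.65 (adjusted p = 0.00394). Day and treatment cannot be told apart there.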
